A study of Homo sapiens with 8 samples.

Results

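The insulin-like growth factor (IGF) binding proteins were followed through tumours grown in mice from the established lung cancer line H2122, which is of human origin. The 8 genes described are the binding proteins IGFBP1 to IGFBP7 and the ligand IGF2, taken by symbol from the 59050 gene symbols of each count table. They were selected with this same comparison in view, so their own differences between the groups are given as a description, with no p-value. Of the 8 genes, 7 passed the filter on low counts and IGF2 did not.

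There were 2 groups of 4 tumours, one from parental cells (genotype given as WT) and one from cells with SMARCA4 knocked out. All 8 tumours had received vehicle, so no untreated tumour and no tumour given an active agent entered any comparison. SMARCA4 encodes BRG1, the motor subunit of the SWI/SNF complexes that move nucleosomes, and the series title asks about anti-tumour immunity and STING in lung cancer that has lost it. The labels do not say whether the knockout line is 1 clone or a pool, which mouse strain carried the tumours, or whether each replicate is a separate mouse. P-values therefore measure only the spread between these 8 samples.

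IGF1 and IGF2 are secreted hormones that signal through the receptor tyrosine kinase IGF1R. The binding proteins hold them in the extracellular fluid with high affinity, which can keep the hormone from its receptor or carry it to the cell surface, and proteases release the hormone by cutting the binding protein. IGFBP7 binds IGFs only weakly and is often set apart as a related protein. IGFBP1 is best known from liver and decidua, where insulin represses it and FOXO factors, hypoxia and amino acid shortage raise it, and IGFBP3 is the main carrier in blood.

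SMARCA4 was at 220, 229, 198 and 235 CPM in parental tumours 1 to 4 and at 29.6, 26.2, 22.3 and 31.1 CPM in knockout tumours 1 to 4, which matched the labels (log2 fold change -3.02 ± 0.117 SE, edgeR quasi-likelihood adjusted p = 1.45e-07). CPM is the number of reads of a gene per 1000000 reads of the scaled library, and the counts assigned to genes totalled 19785922 to 23191698 per tumour. Epithelial markers summed to 5756 to 6929 CPM in parental and 4634 to 6237 CPM in knockout tumours, with 6 of 6 detected, of which KRT19 (1060 ± 153 to 526 ± 51.0 CPM, SD, n = 4 each) and KRT7 (1675 ± 94.6 to 1024 ± 116 CPM) were called lower. The lung lineage markers NKX2-1, SFTPA1 and SFTPC were at 0 in all 8 libraries and that list summed to 1.12 to 2.59 CPM. Its member SFTPA2, too rare to be tested, had 8, 12, 31 and 18 reads in parental and 1, 0, 2 and 1 in knockout tumours 1 to 4. Among parental tumours, replicates 2 and 3 stood apart with leukocyte markers (8 of 8 detected) at 64.4 and 54.3 CPM, against 12.6 and 7.14 CPM in replicates 1 and 4, and replicate 2 had the most skeletal muscle transcript (41.0 CPM). Knockout tumours had 9.80 to 26.3 CPM of leukocyte markers. Of the skeletal muscle markers only MB was tested. It was called lower, from 5.76 ± 2.24 to 2.91 ± 1.28 CPM (SD, n = 4 each), with groups that overlapped. Fibroblast markers summed to 181 to 611 CPM in parental and 345 to 606 CPM in knockout tumours, endothelial markers to 7.72 to 18.1 and 8.82 to 15.6 CPM, smooth muscle and pericyte markers to 4.42 to 8.74 and 6.92 to 11.1 CPM, and adipocyte markers to no more than 1.27 CPM. COL1A1 made up most of the fibroblast sum and PECAM1 most of the endothelial sum. Single markers were called within these lists: LUM rose from 0.374 ± 0.236 to 12.4 ± 2.50 CPM (SD, n = 4 each), CSPG4 rose from 0.192 ± 0.148 to 1.57 ± 0.159 CPM and VWF fell from 1.97 ± 0.806 to 0.378 ± 0.0709 CPM, and CDH5 had no reads in the 4 knockout tumours and at most 1.16 CPM in the parental ones. Whether host reads took part in any of these sums was not tested.

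IGFBP1 and IGFBP5 moved furthest, in opposite directions, and each sits beside a relative that moved less. IGFBP1 was 113-fold higher in the knockout tumours while its neighbour IGFBP3, the family's most abundant transcript, was 2.23-fold higher. IGFBP5 was 19.1-fold lower while its neighbour IGFBP2 differed by less than its spread. IGFBP6 was 2.10-fold higher from a low level, and IGFBP4 and IGFBP7 were not called. Of the 7 genes tested, 3 were called higher and 1 was called lower at an edgeR adjusted p under 0.05, against 13.0% higher, 14.1% lower and 27.0% in either direction among all 16219 genes tested. The same 4 genes had groups that did not overlap, which held for 29.3% of all genes tested. Because the genes were chosen on this contrast, nothing is read from these shares. In whole tumours, fewer cells of a type and less RNA per cell cannot be told apart.

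The promoter windows of the genes with the largest difference in each direction, among the 5 members with a RefSeq window (IGFBP2 to IGFBP6), are shown because the 2 starts differ in CG content. Each runs from 250 bases before to 50 bases after the annotated start, 5′ to 3′ on the gene's strand (RefSeq, GRCh38.p14), with every CG dinucleotide in capitals. The IGFBP3 window is chr7:45921223-45921522 on the minus strand and the IGFBP5 window is chr2:216695500-216695799 on the minus strand.
IGFBP3: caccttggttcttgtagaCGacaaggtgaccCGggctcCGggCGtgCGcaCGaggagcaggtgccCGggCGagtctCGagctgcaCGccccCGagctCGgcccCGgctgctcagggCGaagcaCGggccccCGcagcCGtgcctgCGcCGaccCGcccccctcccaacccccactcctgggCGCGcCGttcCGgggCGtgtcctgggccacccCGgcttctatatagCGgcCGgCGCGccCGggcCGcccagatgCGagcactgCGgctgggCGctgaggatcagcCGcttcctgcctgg
IGFBP5: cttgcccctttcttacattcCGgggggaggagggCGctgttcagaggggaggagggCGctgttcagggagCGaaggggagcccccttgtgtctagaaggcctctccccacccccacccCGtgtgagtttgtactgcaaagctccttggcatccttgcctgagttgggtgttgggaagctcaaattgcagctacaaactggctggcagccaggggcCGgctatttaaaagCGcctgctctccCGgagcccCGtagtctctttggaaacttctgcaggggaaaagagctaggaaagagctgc
The IGFBP3 window is 74.7% G or C with 36 CG dinucleotides, more than 87.3% of the 35116 windows in the table hold. The IGFBP5 window is 59.0% G or C with 9 CG dinucleotides, more than 41.6% of windows hold, against medians of 58.7% and 14 over all windows. The IGFBP4 window holds 30 CG dinucleotides, the IGFBP6 window 12 and the 3 IGFBP2 windows 8, 28 and 6. A link between CG content and the differences was not tested. All windows of the 5 members were searched on both strands for CAAAACA and GTAAACA (FOXO type), TGANTCA (AP-1 type) and ACGTG (the hypoxia type core). GTAAACA was found in the IGFBP6 window, 186 bases before the start, and ACGTG in 1 of the 3 IGFBP2 windows, 31 bases after that start. Over all windows, 4.92% hold CAAAACA, 3.42% GTAAACA, 7.71% TGANTCA and 21.4% ACGTG. A match is a description of the letters only.

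IGFBP1 (ENSG00000146678.9, chr7:45888357-45893668, plus strand) had 8, 22, 19 and 5 reads in parental tumours 1 to 4, which is 0.414, 1.07, 0.849 and 0.213 CPM. In knockout tumours 1 to 4 it had 2175, 1485, 1600 and 844 reads, or 102, 72.4, 74.7 and 39.4 CPM. The lowest knockout tumour was far above the highest parental tumour, so the groups did not overlap. The mean went from 0.637 ± 0.394 to 72.0 ± 25.5 CPM (mean ± SD over 4 tumours), with a log2 fold change of 6.82 ± 0.396 (SE). The parental level rests on 54 reads in all, and the exact 95% Poisson intervals of its counts ran from 1.62 to 11.7 reads in replicate 4 and from 13.8 to 33.3 reads in replicate 2. Such intervals cover counting error only and not the spread between tumours. If copies made by PCR were counted as reads of their own, the intervals are too narrow.

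IGFBP3 (ENSG00000146674.14, chr7:45912245-45921874, minus strand) lies 18.6 kb from IGFBP1 and points towards it. Its parental levels were 317, 569, 542 and 373 CPM and its knockout levels 1175, 1087, 1119 and 642 CPM. Here too the groups did not overlap, but the lowest knockout tumour, replicate 4, was close to the highest parental one. The mean went from 450 ± 124 to 1006 ± 245 CPM (mean ± SD over 4 tumours), with a log2 fold change of 1.16 ± 0.22 (SE).

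The contrast between the chromosome 7 neighbours is plainest within a library, where depth cancels. For each IGFBP1 read there were 766, 529, 639 and 1754 IGFBP3 reads in parental tumours 1 to 4. In knockout tumours 1 to 4 there were 11.6, 15, 15 and 16.3. IGFBP1 therefore went from near silence to a level closer to that of its neighbour, though scaled for length IGFBP3 was the more abundant transcript in all 8 tumours. These ratios are of reads, not scaled for length.

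**Figure D1:**
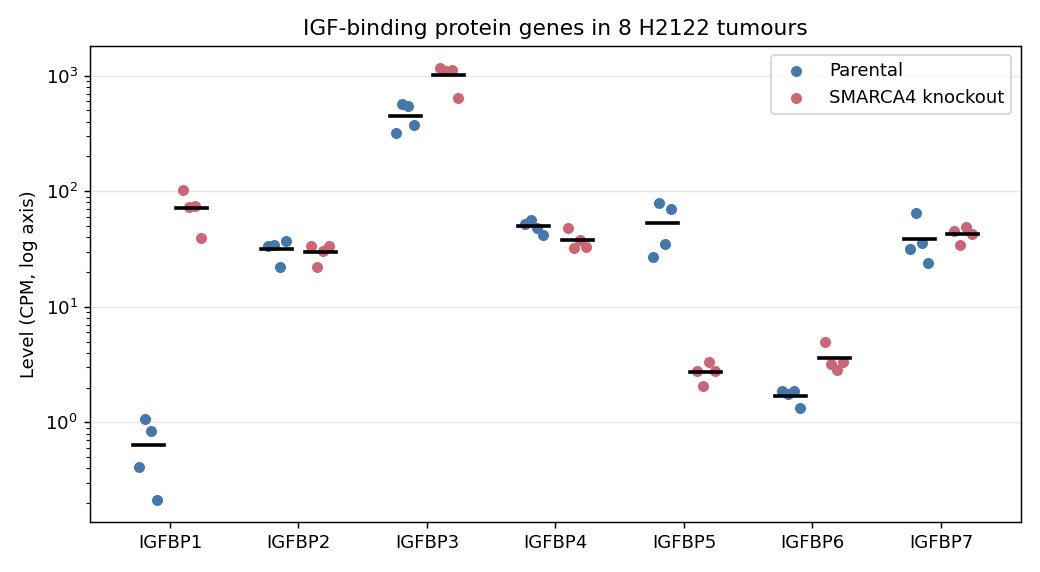
CPM on a log axis of the 7 tested binding proteins in each tumour, with 4 parental and 4 knockout points per gene and a bar at each group mean. IGFBP1 goes from 0.637 to 72.0 CPM and IGFBP5 from 52.8 to 2.75 CPM, while the points of IGFBP2, IGFBP4 and IGFBP7 overlap.

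IGFBP1 and IGFBP3 also lay on the same side of their group's mean in each of the 8 tumours. Relative to its own group's mean log2 level, IGFBP1 stood at -0.34, 0.86, 0.55 and -1.07 in parental tumours 1 to 4, and IGFBP3 at -0.46, 0.38, 0.31 and -0.23. Both were high in parental replicates 2 and 3, the libraries with the most leukocyte marker, and low in replicates 1 and 4. In knockout tumours 1 to 4, IGFBP1 stood at 0.57, 0.09, 0.13 and -0.79 and IGFBP3 at 0.26, 0.15, 0.19 and -0.61. Knockout replicate 1 was the highest for both genes and replicate 4 the lowest for both. Knockout replicate 4 also had the most skeletal muscle marker of its group (16.1 CPM, others 2.44 to 5.09 CPM) and the most reads outside annotated features (10.4%, others 7.32% to 8.56%). With 4 tumours a group no correlation is given, and the part of other cell types in this variation was not tested.

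**Figure D2:**
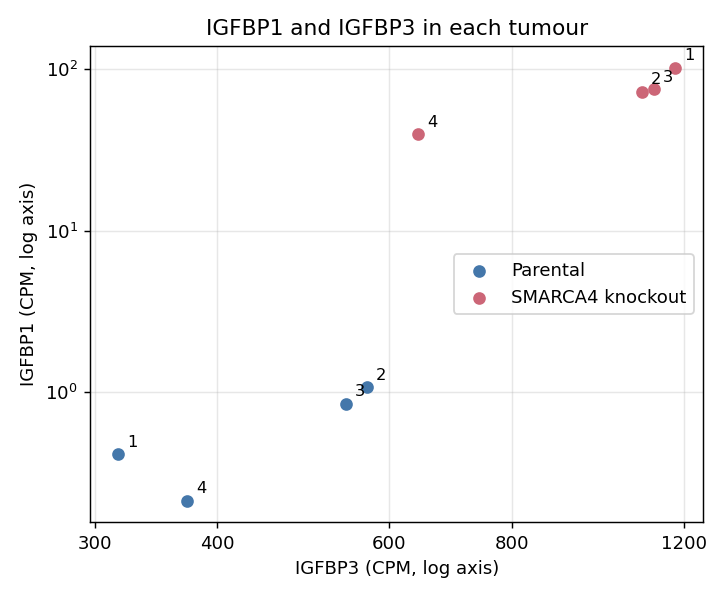
IGFBP1 against IGFBP3 in each of the 8 tumours, both in CPM on log axes, with points numbered by replicate. The parental tumours lie between 0.213 and 1.07 CPM of IGFBP1 and the knockout tumours between 39.4 and 102 CPM, and knockout tumour 4 is the lowest of its group on both axes.

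IGFBP5 (ENSG00000115461.4, chr2:216672105-216695525, minus strand) is a matrix-associated binding protein and the member most reduced in the knockout tumours. Parental tumours 1 to 4 held 27.0, 78.9, 34.9 and 70.3 CPM, and knockout tumours 1 to 4 held 2.80, 2.05, 3.36 and 2.80 CPM. The parental tumours differed widely among themselves, with replicates 2 and 4 high, while the knockout tumours were uniformly low and no value overlapped. The mean went from 52.8 ± 25.6 to 2.75 ± 0.539 CPM (mean ± SD over 4 tumours), with a log2 fold change of -4.26 ± 0.358 (SE). The high parental replicates for IGFBP5 were not those for IGFBP1: replicate 4, the lowest parental tumour for IGFBP1, was among the highest for IGFBP5.

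IGFBP2 (chr2:216632828-216664436, plus strand), a carrier abundant in fetal tissue and raised in many cancers, ends 7.67 kb from IGFBP5 and did not follow it. It was at 33.4, 34.3, 22.3 and 37.0 CPM in parental and at 33.9, 21.9, 30.2 and 33.4 CPM in knockout tumours 1 to 4. These ranges overlapped almost completely (31.8 ± 6.47 and 29.9 ± 5.53 CPM, SD, n = 4 each), and the log2 fold change was -0.09 ± 0.172 (SE). For each IGFBP5 read there were 1.24, 0.435, 0.639 and 0.526 IGFBP2 reads in parental tumours, and 12.1, 10.7, 9 and 11.9 in knockout tumours. Scaled by the joined length of all annotated exons, IGFBP5 was above IGFBP2 in 3 of the 4 parental tumours and below it in all 4 knockout tumours. That length is 4767 bases for IGFBP2 and 6442 for IGFBP5. It can exceed the length of the transcript expressed, and the parental order depends on it.

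IGFBP6 (chr12:53097436-53102345, plus strand), which prefers IGF2 over IGF1, was a minor transcript throughout. It had 36, 36, 42 and 31 reads in parental and 106, 66, 61 and 71 reads in knockout tumours 1 to 4. In CPM these were 1.86, 1.76, 1.88 and 1.32 against 4.95, 3.22, 2.85 and 3.31, which did not overlap. The mean went from 1.70 ± 0.263 to 3.58 ± 0.935 CPM (mean ± SD over 4 tumours), with a log2 fold change of 1.07 ± 0.228 (SE). Its log2 fold change was thus close to that of IGFBP3, on a far lower level per length.

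IGFBP4 (chr17:40443461-40457731, plus strand), the substrate of the protease PAPPA, leaned lower without being called. Its parental levels were 52.2, 56.3, 48.2 and 42.0 CPM and its knockout levels 47.8, 32.2, 38.1 and 32.8 CPM. Knockout replicate 1 lay within the parental range and the other 3 below it. The log2 fold change was -0.40 ± 0.138 (SE), and it was called lower when knockout replicate 1 was left out (-0.53) or parental replicate 4 was left out (-0.47), as well as by DESeq2 (-0.41).

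IGFBP7 (chr4:57030773-57110385, minus strand), a protein common in vessel walls and stroma, overlapped between the groups. Parental tumours held 31.4, 64.5, 35.5 and 23.9 CPM and knockout tumours 45.6, 34.1, 48.9 and 43.0 CPM. Parental replicate 2, the library with the most leukocyte and muscle marker, was the highest of the 8. The log2 fold change was 0.15 ± 0.253 (SE) with that library and 0.50, called higher, without it. Of its annotated exon bases, 18.9% are covered by genes on the other strand (IGFBP7-AS1 and POLR2B), and the strand setting of the counting is not given in the sources used here.

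IGF2, the fetal growth hormone that several of these proteins bind, was almost without reads. It had 0 in all 4 parental tumours and 4, 0, 1 and 1 in knockout tumours 1 to 4, so no fold is given, and a count of 0 allows up to 3 reads per library. The annotation holds 2 overlapping IGF2 entries on chromosome 11, with 73.7% and 90.0% of their exon bases shared with other genes on the same strand (INS-IGF2 and AC132217.1 among them). Reads there can be set aside as ambiguous, and how these were counted is not given in the sources used here.

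Per kilobase of annotated exon, the make-up of the family shifted from IGFBP3 with IGFBP4 and IGFBP7 to IGFBP3 with IGFBP1. Levels here are CPM per kilobase of exon (mean ± SD over 4 tumours), with exon lengths from GENCODE 29. Each length joins all annotated exons of a gene and can exceed that of the transcript expressed. The order of different genes and their shares depend on these lengths. In parental tumours the order of the means was IGFBP3 (98.5 ± 27.1), IGFBP4 (22.6 ± 2.78), IGFBP7 (20.1 ± 9.21), IGFBP5 (8.20 ± 3.98), IGFBP2 (6.66 ± 1.36), IGFBP6 (1.27 ± 0.195) and IGFBP1 (0.386 ± 0.238). IGFBP4 and IGFBP7, and likewise IGFBP5 and IGFBP2, did not differ beyond their spread and changed places between libraries. In knockout tumours the order was IGFBP3 (220 ± 53.6), IGFBP1 (43.6 ± 15.4), IGFBP7 (22.2 ± 3.29), IGFBP4 (17.2 ± 3.29), IGFBP2 (6.27 ± 1.16), IGFBP6 (2.66 ± 0.695) and IGFBP5 (0.427 ± 0.0837). That order held in each of the 4 knockout libraries, and IGFBP1 went from last in all 4 parental libraries to the second place.

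As a share of the summed per-length level of the 7 genes, IGFBP1 made up 0.205%, 0.317%, 0.300% and 0.0968% in parental tumours 1 to 4. In knockout tumours 1 to 4 it made up 16.4%, 13.6%, 13.2% and 11.3%. IGFBP3 held the largest share everywhere, from 56.8% to 69.4% in parental and from 66.5% to 74.0% in knockout tumours, ranges that overlapped. IGFBP4 held 14.8% ± 3.19 of the parental sum and 5.62% ± 1.08 of the knockout sum (SD, n = 4 each). IGFBP5 held 5.20% ± 2.38 and 0.143% ± 0.0472. The sum itself was 122, 205, 171 and 133 in parental and 375, 321, 342 and 211 in knockout tumours 1 to 4, so a lower share need not be a lower level.

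**Figure D3:**
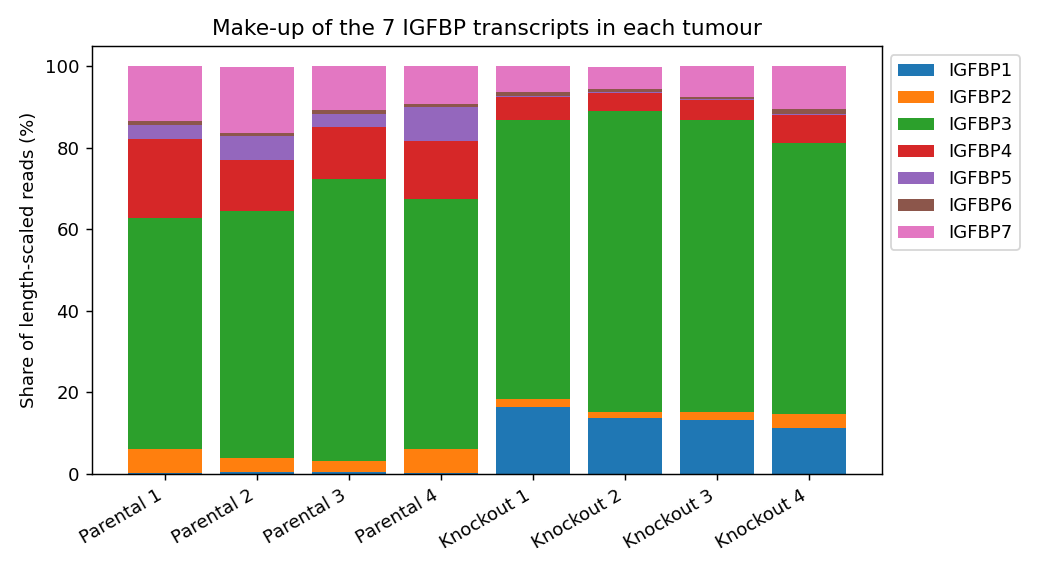
Share (%) of each of the 7 binding proteins in their summed CPM per kilobase of exon, one stacked bar per tumour. IGFBP3 holds 56.8% to 74.0% of every bar, and the IGFBP1 segment appears in the knockout bars, at 11.3% to 16.4%.

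For IGFBP2, IGFBP4 and IGFBP7, whose groups overlapped, and for IGFBP3, whose groups did not, tumour-to-tumour spread was higher than in most genes of like abundance. The biological coefficient of variation, the edgeR estimate of that spread beyond counting noise, was 25.1% for IGFBP7, 17.5% for IGFBP2 and 14.3% for IGFBP4, and 21.9% for IGFBP3. The medians of genes within 0.5 log2 CPM of these 4 genes were 11.3% to 11.7%, and 82.3% to 98.6% of those genes lay below the members. IGFBP6 differed, at 21.2% beside a median of 21.8% for genes as rare. IGFBP1 and IGFBP5 are left out, because their groups lay furthest apart and their average level is one that neither group has.

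The change at the IGFBP1-IGFBP3 and IGFBP2-IGFBP5 pairs was compared with the genes around them, which the choice of members did not use. No tested gene lies between the members of either pair. Of the 3 nearest tested genes on each side of each pair, 2 of 12 were called, against 27.0% of all genes. TNS3, a focal adhesion protein gene 1353 kb beyond the IGFBP1-IGFBP3 pair, went from 82.2 ± 15.1 to 113 ± 11.3 CPM (SD, n = 4 each; log2 fold change 0.46 ± 0.13 SE, edgeR adjusted p = 0.0228). Its call was lost without parental replicate 1 (0.35), knockout replicate 1 (0.44) or knockout replicate 3 (0.39).

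MARCH4, a membrane ubiquitin ligase gene 261 kb before the IGFBP2-IGFBP5 pair, went from 1.13 ± 0.628 to 4.26 ± 1.01 CPM (SD, n = 4 each; log2 fold change 1.91 ± 0.375 SE, edgeR adjusted p = 0.00305). It is rare, and its difference was opposite in sign to that of IGFBP5. On the other side of the pair, the rare transcripts DIRC3 (-1.12) and AC010136.1 (-1.04) had the sign of IGFBP5 without being called. DIRC3 passed without parental replicate 2 (-1.32), and AC010136.1 passed without parental replicate 4 (-1.32), by DESeq2 (-1.06) and with no filter on low counts (-1.05). The nearest tested gene outside the IGFBP1-IGFBP3 pair, GTF2IP13 at 73.1 kb, had a log2 fold change of 0.16. For the IGFBP2-IGFBP5 pair it was the ribosomal protein gene RPL37A at 53.6 kb, with a log2 fold change of 0.02. None of the 12 neighbours differed by as much as IGFBP1 or IGFBP5. Those members were chosen on this contrast, and 11.1% of all genes tested had an absolute log2 fold change above 1. The smaller differences of the neighbours are therefore a description and no separate result.

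**Figure D4:**
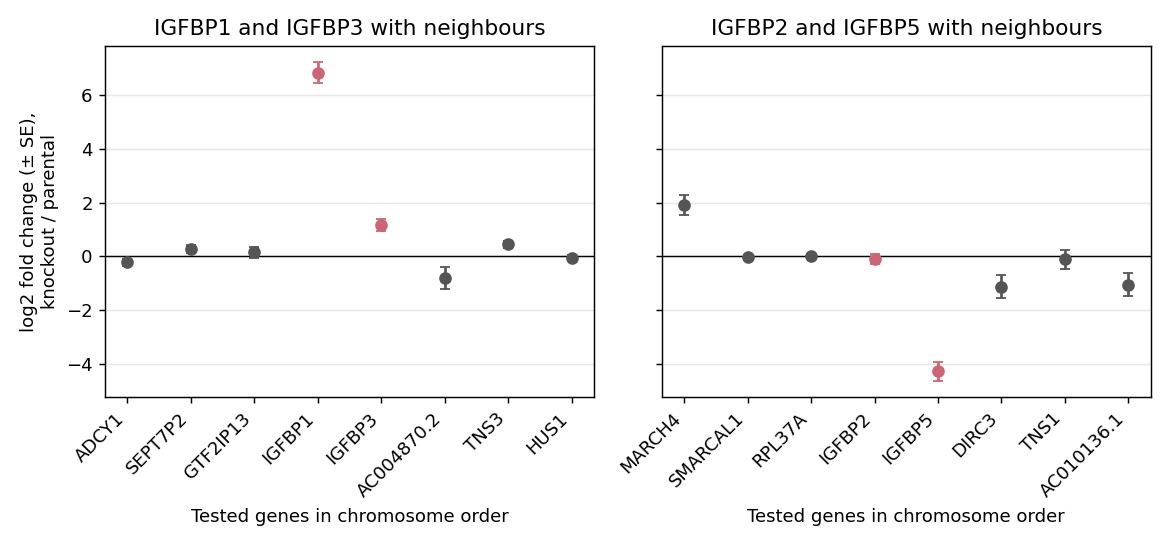
Log2 fold change (knockout over parental, ± SE) of both gene pairs and the 3 nearest tested genes on each side, in chromosome order. IGFBP1 at 6.82 and IGFBP5 at -4.26 stand outside their neighbours, which lie between -1.12 and 1.91.

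The genes whose pattern over the 8 tumours was most like that of IGFBP1, by root mean square distance of centred log2 CPM among 13046 genes, were DPEP1 (0.63), TFPI2 (0.74), SLC1A2 (1.06), MFAP5 (1.22) and CRB1 (1.25). DPEP1, a membrane dipeptidase gene, had 0, 2, 1 and 0 reads in parental and 222, 93, 206 and 158 reads in knockout tumours 1 to 4. TFPI2, a secreted protease inhibitor gene, was at 2.02, 2.15, 1.43 and 2.13 CPM against 158, 119, 158 and 95.7 CPM. Both were nearly silent in the parental tumours, as IGFBP1 was. Because each gene was centred on its mean over all 8 tumours, for IGFBP1 the distance is set mostly by the group difference. A large rise and a low parental level in these genes follow from that measure and are no separate result. Nearest to IGFBP3 were CHRNA7 (0.16), SYTL3 (0.17) and ZNF699 (0.18), and CHRNA7, a nicotinic receptor subunit gene, went from 3.31 ± 0.541 to 7.07 ± 1.20 CPM (SD, n = 4 each).

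The rest of the IGF system was read from 7 lists, which hold none of the 8 members. Of 84 genes tested, 15 were called higher and 21 lower in the knockout tumours, or 42.9% beside 27.0% of all genes, with a median log2 fold change of -0.09 beside 0.00. The lists were chosen with earlier results of these data known, so nothing is read from this share or from those of single lists. The 27.0% also covers all genes tested, whatever their level. Among ligands and receptors, 2 of 4 tested genes were called, both lower. IGF1 was rare and went from 1.69 ± 0.482 to 0.923 ± 0.205 CPM (SD, n = 4 each; log2 fold change -0.86 ± 0.276 SE, edgeR adjusted p = 0.0382). IGF2R, the receptor that clears IGF2, had 155, 229, 161 and 194 CPM in parental and 144, 136, 147 and 105 CPM in knockout tumours (-0.47 ± 0.143 SE, edgeR adjusted p = 0.0299).

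Neither call held under every alternative. The IGF1 call was lost with no filter on low counts (-0.88), without parental replicate 1 (-0.90), 2 (-0.66) or 3 (-0.87), or without knockout replicate 1 (-0.77), 3 (-0.84) or 4 (-0.82). The IGF2R call was lost without parental replicate 2 (-0.35) or 4 (-0.45), or without knockout replicate 2 (-0.48) or 4 (-0.37). IGF1R, the signalling receptor, was at 281 ± 49.7 and 351 ± 43.7 CPM (log2 fold change 0.32, edgeR adjusted p = 0.0996) and passed without parental replicate 2 (0.44). INSR, the insulin receptor, had a log2 fold change of 0.05 and was not called.

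Signalling genes downstream of the receptor gave 2 higher and 6 lower of 29 tested, which at 27.6% was near the background. GRB14, an adaptor that restrains the insulin receptor, rose from 4.73 ± 0.898 to 13.0 ± 0.780 CPM (SD, n = 4 each; log2 fold change 1.45 ± 0.152 SE, edgeR adjusted p = 4.28e-05). PIK3R3, a regulatory subunit of PI3 kinase, fell from 19.4 ± 6.20 to 6.54 ± 1.07 CPM (-1.57 ± 0.227 SE, edgeR adjusted p = 0.000405). EIF4EBP1, a translation repressor under mTOR, fell by 0.57 on the log2 scale and TSC1, a brake on mTOR, rose by 0.56. The receptor substrates IRS1 (-0.08) and IRS2 (0.22) were not called, though IRS2 passed without knockout replicate 4 (0.35).

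Proteases that cut binding proteins, with their inhibitors, were the list with the largest share of calls, 7 higher and 5 lower of 17 tested (70.6%, beside 27.0% of all genes). That share is a description only, because the list was chosen with earlier results of these data known. Of the 7, MMP1 and C1S, named after their values were seen, held in 9 of 15 alternatives each, MMP1 being lost with limma-voom (1.27) and C1S with DESeq2 (1.10). Each was also lost on leaving out any 1 of 5 tumours, MMP1 without parental replicate 1, 3 or 4 or knockout replicate 1 or 2, and C1S without parental replicate 1 or 4 or knockout replicate 2, 3 or 4. PAPPA, the protease that cleaves IGFBP4 and IGFBP5, was at 6.63, 5.66, 5.14 and 6.76 CPM in parental and at 41.7, 31.1, 41.8 and 24 CPM in knockout tumours 1 to 4. It rose in every knockout tumour above the whole parental range (log2 fold change 2.52 ± 0.187 SE, edgeR adjusted p = 4.39e-06). Its stanniocalcin inhibitors STC1 (-0.26) and STC2 (0.23) were not called, though STC2 passed without knockout replicate 4 (0.37), and PAPPA2 was too rare to be tested.

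Other proteases moved in both directions. ADAMTS1 rose from 2.21 ± 0.485 to 6.22 ± 0.666 CPM (SD, n = 4 each; log2 fold change 1.50 ± 0.188 SE, edgeR adjusted p = 0.000157). PLAT, the tissue plasminogen activator, fell from 43.4 ± 15.3 to 4.74 ± 1.12 CPM (-3.20 ± 0.275 SE, edgeR adjusted p = 1.16e-05). ADAM28, a metalloprotease known to cut IGFBP3, fell from 85.5 ± 21.1 to 22.8 ± 3.51 CPM (-1.91 ± 0.181 SE, edgeR adjusted p = 2.22e-05). Of the genes outside the naming rule, chosen after their values were seen, the rare MMP3 rose by 3.30 and ADAM12 by 0.43 on the log2 scale. MMP3 had the largest rise of the list. Likewise, urokinase PLAU rose by 0.84 and cathepsin CTSD fell by 0.77 on the log2 scale, and each of these genes was called. HTRA1, the serine protease described with the IGFBP-domain relatives, was also called lower. ADAM9, the fifth gene called lower, fell by 0.38, a call lost without parental replicate 1 (-0.34) or 2 (-0.37) or knockout replicate 1 (-0.39), 2 (-0.40) or 4 (-0.27). Beside these protease levels, the fibroblast marker sums overlapped between the groups. LUM was the 1 called of 5 tested fibroblast markers, and CSPG4 the 1 called of 4 tested smooth muscle and pericyte markers. Both, given above, were higher in the knockout tumours, and the part of stromal cells was not tested.

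**Figure D5:**
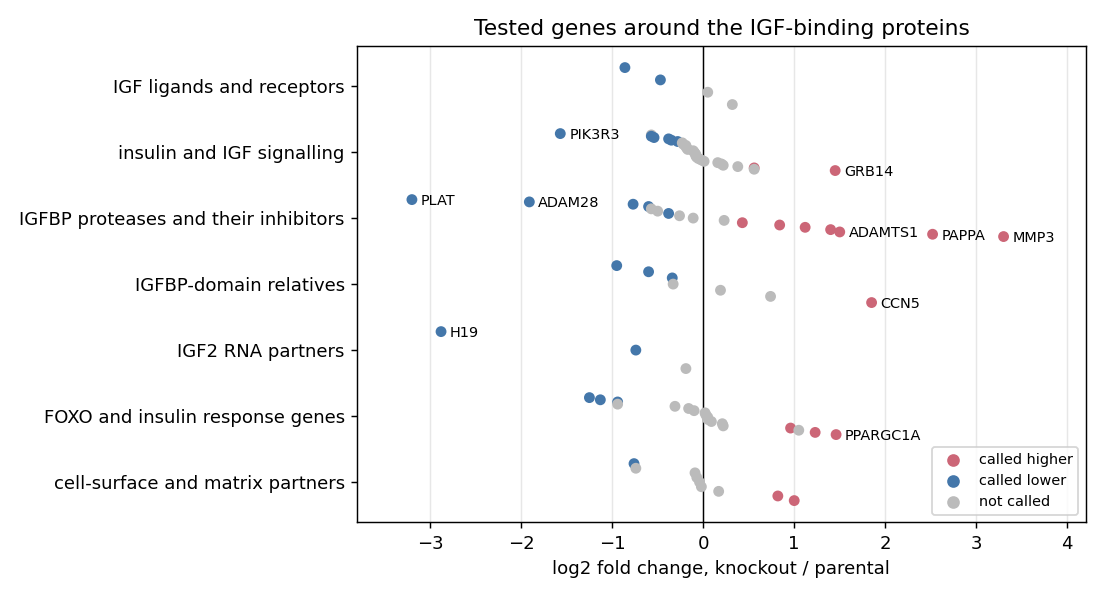
Log2 fold change (knockout over parental) of every tested gene in the 7 lists, one row of points per list, coloured by whether the gene was called higher, called lower or not called. PLAT at -3.20 and the rare MMP3 at 3.30 lie at the ends of the protease row, with PAPPA at 2.52, and the list medians lie between -0.74 and 0.04.

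IGF2 has RNA partners of its own. H19, the imprinted non-coding RNA beside IGF2 (chr11:1995176-2001470, minus strand), was at 31.4, 15.2, 24.5 and 33.5 CPM in parental and at 3.08, 6.34, 2.10 and 2.75 CPM in knockout tumours 1 to 4. It was lower in all 4 knockout tumours than in any parental tumour (log2 fold change -2.88 ± 0.335 SE, edgeR adjusted p = 9.5e-05), while IGF2 itself was near 0 in both groups. IGF2BP2, which binds IGF2 messenger RNA, fell from 22.5 ± 3.69 to 13.5 ± 1.89 CPM (SD, n = 4 each; -0.74 ± 0.144 SE, edgeR adjusted p = 0.00288). IGF2BP3 was not called (-0.19) and IGF2BP1 was too rare to be tested.

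Relatives that carry the IGFBP domain gave 1 called higher and 3 lower of 7 tested (57.1%, beside 27.0% of all genes). CCN2, a matricellular growth factor, fell from 30.6 ± 7.74 to 15.9 ± 2.73 CPM (SD, n = 4 each; log2 fold change -0.95 ± 0.185 SE, edgeR adjusted p = 0.00293). The serine protease HTRA1 fell from 94.3 ± 12.5 to 62.2 ± 7.15 CPM (-0.60 ± 0.118 SE, edgeR adjusted p = 0.00303). CRIM1, a transmembrane relative, fell by 0.34, a call lost without parental replicate 1 (-0.30), 2 (-0.33) or 4 (-0.33) or knockout replicate 2 (-0.34), 3 (-0.38) or 4 (-0.24). CCN5, the gene called higher, was rare and rose by 1.85 on the log2 scale (named after its value was seen). IGFBPL1, too rare to be tested, had 10, 1, 30 and 19 reads in parental tumours and 0 in all 4 knockout tumours. With the reads of each group pooled, that is at least 19.8-fold lower against a floor of 3 reads over the group. This bound covers counting error only and not the wide spread between the parental tumours.

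Genes that FOXO factors or insulin are known to control, the setting in which IGFBP1 is best known, gave 3 higher and 3 lower of 18 tested (33.3%, beside 27.0% of all genes), with a median log2 fold change of 0.04. PPARGC1A rose by 1.46 (edgeR adjusted p = 0.00147) and CITED2 by 1.23 (edgeR adjusted p = 0.000101). GADD45A fell by 1.25 and FBXO32 by 1.13 (edgeR adjusted p = 4.33e-05 and 0.00151). SOD2 (0.96) and PDK4 (-0.94), named after their values were seen, were the remaining calls. Of the FOXO factors themselves, FOXO4 fell from 12.6 ± 1.44 to 8.68 ± 0.544 CPM (SD, n = 4 each; -0.54, edgeR adjusted p = 0.00717; named after its value was seen), and FOXO1 (-0.08) and FOXO3 (-0.22) were not called.

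Cell-surface and matrix partners of the binding proteins gave 2 higher and 1 lower of 9 tested (33.3%, beside 27.0% of all genes). Integrin subunit ITGB1, which pairs with ITGA5 in the receptor that binds IGFBP1, rose from 907 ± 110 to 1605 ± 227 CPM (SD, n = 4 each; log2 fold change 0.82 ± 0.124 SE, edgeR adjusted p = 0.000556). ITGA5 was at 59.0, 116, 52.3 and 59.7 CPM in parental and at 195, 161, 142 and 75.9 CPM in knockout tumours, which overlapped (1.00 ± 0.296 SE, edgeR adjusted p = 0.0272). Its call was lost without parental replicate 1 (0.91), 3 (0.87) or 4 (0.92), or without knockout replicate 1 (0.82), 2 (0.94) or 3 (1.01).

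Insulin-responsive liver is the textbook source of IGFBP1, so hepatocyte markers are given beside it. Their sum was 155 to 296 CPM in parental and 539 to 871 CPM in knockout tumours, with any read at all for 9 of 10. Most of it was fibrinogen transcript, FGA (76.7 ± 13.6 and 409 ± 82.7 CPM, SD, n = 4 each) and FGB (139 ± 44.1 and 262 ± 62.9 CPM). Of the 4 markers tested, FGA rose by 2.41 and FGB by 0.91 on the log2 scale, and both were called higher. TF (-0.04) and HP (-0.99) were not called. ALB did not exceed 0.187 CPM and TTR was at 0 in all 8 libraries. The part of any hepatocyte-like programme in the IGFBP1 level was not tested.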

How the data were processed

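Total RNA of 8 H2122 xenograft tumours was sequenced, 4 per genotype, and 1 table per tumour was deposited. The deposited values are raw counts of reads per gene symbol. TopHat2 2.1.1, HTSeq 0.11.0 and hg38 are named in the submitters' processing notes. The annotation, the strand setting and any separation of mouse reads are not given in the sources used here. The 5 summary lines of each table stayed out of library sizes; 79.1% to 85.2% of reads lay in genes and 3.98% to 4.31% were ambiguous. No replicates agreed within sampling noise (chi-square per degree of freedom at least 8.21).

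Genes were kept by filterByExpr (minimum count 10, minimum total 15), scaled by TMM and tested with edgeR 4.0.16 in R 4.3.3 (quasi-likelihood F-test, no covariate, two-sided, Benjamini-Hochberg over all 16219 genes). Genes with an adjusted p under 0.05 are called. The step was tested on simulated data. Positions and exon lengths are from GENCODE 29, which placed 56159 symbols (95.1%). Promoter windows are from RefSeq. In the lists, 5 CCN genes written under older symbols were matched through RefSeq synonyms, and NOV was left unmatched.

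The members, the lists and the tests were chosen with earlier results of these data known. Named besides members were the neighbours, up to 4 called genes per list with the largest change at an average log2 CPM of at least 1, fixed pathway genes, and the 5 and 3 genes most like IGFBP1 and IGFBP3. One gene that this rule names is not reported here. Same-numbered tumours did not deviate together (correlations -0.187 to 0.0863), so the numbers were not used as pairs. Alternatives were DESeq2 1.42.0, limma-voom (limma 3.58.1), other scalings and filters, a replicate block and leaving out each tumour.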

Additional observations from a re-analysis of the deposited data

Results flagged for a closer look

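Of 155 sets of 4 values over 78 genes, 8 (5.16%) held 1 tumour whose gap to the nearest of its group, relative to the group's range, passed Dixon's critical value for groups of 4. Chance flags about 1 set in 20.

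IGFBP3 stood at 642 CPM in knockout replicate 4, against 1087 to 1175 CPM in the other 3. That tumour was also the lowest of its group for IGFBP1 and the highest for skeletal muscle marker (16.1 CPM, others 2.44 to 5.09 CPM), whose part in the value was not tested.

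In parental replicate 2, ITGA5 stood at 116 CPM (others 52.3 to 59.7) and TNS1, a neighbour of IGFBP5, at 204 CPM (others 72.8 to 93.2). That library also had the most leukocyte and skeletal muscle marker, whose part in these values was not tested.

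HTRA1 was at 75.6 CPM in parental replicate 3 (others 99.1 to 102), and CITED2 at 50.3 CPM in parental replicate 4 (others 58.9 to 60.5). In the same tumour FOXO4 was at 10.5 CPM (others 13.1 to 13.5), and KRT7 was at 851 CPM in knockout replicate 2 (others 1068 to 1097), both examined after their values were seen. MMP3, chosen after its values were seen, was at 3.07 CPM in knockout replicate 2 (others 0.793 to 1.07).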

How the results depend on the processing

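IGFBP1 kept its call, with log2 fold changes of 6.50 to 7.18 over the alternatives, as did IGFBP3 (1.02 to 1.33), IGFBP5 (-4.48 to -4.00) and IGFBP6 (0.88 to 1.17). The alternatives use these same tumours, and the members were chosen on this contrast, so a kept call is a description only. IGFBP4 was called lower by DESeq2 (-0.41), limma-voom (-0.40), with no filter on low counts (-0.42) and with a replicate block (-0.41), and ranged from -0.53 to -0.33 when 1 tumour was left out. IGFBP7 ranged from -0.03 to 0.50 when 1 tumour was left out, and was called without parental replicate 2; the cause was not tested. The replicate block gave 3871 called genes in place of 4385 and 34 pathway genes in place of 36, without the calls of IGF2R (-0.47) and CRIM1 (-0.34) and with one of AC010136.1 (-0.96); 1 of 8 libraries correlated best with its own number, so the block is no pairing by design. Leaving out 1 tumour gave 3501 to 4721 called genes and 30 to 36 pathway genes. Over the results and alternatives run, 1113 of 1184 values kept their direction and their side of the threshold, or moved by less than the spread, 46 lost a call, 15 gained one and 10 changed sign. All 10 belong to genes that were not called: when 1 tumour was left out, IGFBP2 ranged from -0.23 to 0.04, INSR from -0.03 to 0.14, IRS1 from -0.19 to 0.12, STC1 from -0.49 to 0.02, TNS1 from -0.27 to 0.34 (highest without parental replicate 2) and SMARCAL1 from -0.08 to 0.03, with 0.01 under upper-quartile scaling, and IGFBP7 is given above. Depth limits parental IGFBP1 (54 reads in all) and IGF2.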
